A study of Mus musculus with 13 samples.

Results

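The 37 genes described here encode the TGF-beta and BMP signalling pathway and were picked by gene symbol for their roles in it, from the 43629 genes of the count files. They comprise 9 ligands, 5 genes grouped under latency and ligand processing, 8 receptors and co-receptors, 3 secreted antagonists, 7 Smads and 5 target genes. RNA was sequenced from mouse embryonic fibroblasts in 13 libraries, to find the RNAs bound by IMP1 and IMP2. These are the IGF2 mRNA-binding proteins encoded by Igf2bp1 and Igf2bp2, which bind many messages and affect their stability, transport and translation. Immunoprecipitation (IP) with anti-IMP1, with anti-IMP2 or with control IgG gave 3 libraries each, and 4 single libraries came from total RNA of IMP1 KO, IMP1 WT, IMP2 KO and IMP2 WT cells. The labels give day E12.5 for every library, and all cells grew in DMEM with 10% FBS. The genotype of the IP cells and the way in which the genes were deleted are not given in the sources used here. Nothing in the labels says whether the 3 libraries of an IP group came from separate cultures, so the p-values measure only the spread between these libraries, which may be technical. Each total RNA group is 1 library with no replicate, and differences between these groups carry no test.

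TGF-beta ligands are secreted in a latent complex that some latent TGF-beta binding proteins (LTBPs) tether to the extracellular matrix. A released ligand brings together type II and type I receptors, which are kinases, and the type I receptor then phosphorylates receptor Smads: Smad2 and Smad3 after TGF-beta or activin, Smad1 and Smad5 after BMP. These join Smad4 and enter the nucleus, while Smad6, Smad7, Skil and secreted antagonists restrain the pathway. In fibroblasts the TGF-beta branch is known for driving matrix production and the BMP branch for inducing the Id genes.

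Library totals ran between 11430002 and 21756430 gene counts, and levels are given as counts per 1000000 (CPM). A count of 0 allows up to 3 counts, which came to between 0.138 and 0.262 CPM. Reads outside annotated genes made up 7.43 to 7.66% of the records in IMP1 IP, 4.7 to 5.22% in IMP2 IP, 24.2 to 25.1% in IgG IP and 4.43 to 5.1% in total RNA. The libraries labelled knockout had less of the deleted gene's RNA: Igf2bp1 was at 3.21 CPM in IMP1 KO and 32.3 CPM in IMP1 WT cells. Igf2bp2 was at 28.2 CPM in IMP2 KO and 149 CPM in IMP2 WT cells. All 8 fibroblast markers (Col1a1, Col1a2, Col3a1, Pdgfra, Pdgfrb, Vim, Lum and Thy1) had counts in the 4 total RNA libraries. In the IP libraries 7 or 8 of the 8 had counts, with Lum at 0 in those that had 7.

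In the IMP1 pull-down, RNAs of the latency and processing group, of 6 of 8 receptors and of 4 of 7 Smads were higher than in IgG. All 5 latency and processing messages and 6 of 8 receptor messages were higher in IMP1 IP, and 0 of the 7 tested ligands were higher. In IMP2 IP 4 of 5 target genes were higher, the Id genes among them, where 40.3% of all genes were. Of the 37 genes 35 passed the filter on low counts, and Gdf6 and Gdf10 did not. By edgeR's quasi-likelihood test with Benjamini-Hochberg adjustment over all 14076 genes tested, 27 of the 35 differed between IMP1 IP and IgG IP, where 63.6% of all genes did. Of these, 19 were higher in IMP1 IP, against 31.7% of all genes, and 8 were lower, against 31.9%. Their median log2 fold change was 0.26, and that of all genes was -0.03.

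Against the same IgG libraries, 26 of the 35 differed in IMP2 IP, where 77.6% of all genes did. Higher were 15 (40.3% of all genes) and lower 11 (37.3%), and the median log2 fold change was 0.04 in the pathway and 0.04 over all genes. The pathway's count in IMP2 IP was thus near the background. Between the pull-downs 28 of the 35 differed (71.4% of all genes). In IMP1 IP 17 were higher than in IMP2 IP (34.1% of all genes) and 11 were lower (37.3%), with a median of 0.13 against -0.01 over all genes. The 3 libraries of IMP1 IP lay wholly above those of IgG IP for 20 genes and wholly below for 10, where 69.6% of all genes did not overlap. For IMP2 IP and IgG IP the counts were 16 above and 11 below (78.3% of all genes), and for IMP1 IP and IMP2 IP 17 above and 11 below (73.2%).

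These directions are relative to the bulk of genes, which other scalings move. In IMP1 IP against IgG, 49.8% of all calls were on the higher side, and total count scaling, which shifts the median gene by -0.15 on the log2 scale, made that 33.3%. Upper quartile scaling (a shift of -0.17) made it 31.6%. In IMP2 IP against IgG the share was 51.9%, against 62.2% with total counts (a shift of 0.17) and 39.9% with the upper quartile (-0.18). For IMP1 IP against IMP2 IP it was 47.8%, and total counts, with a shift of -0.33, made it 27.8%. The pathway's own balance moved too. For IMP1 IP over IgG IP the 19 higher and 8 lower became 16 and 10 with either scaling, and for IMP2 IP over IgG IP the 15 higher and 11 lower became 20 and 6 with total counts and 12 and 16 with the upper quartile. For IMP1 IP over IMP2 IP the 17 higher and 11 lower turned to 8 and 16 with total counts.

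**Figure D1:**
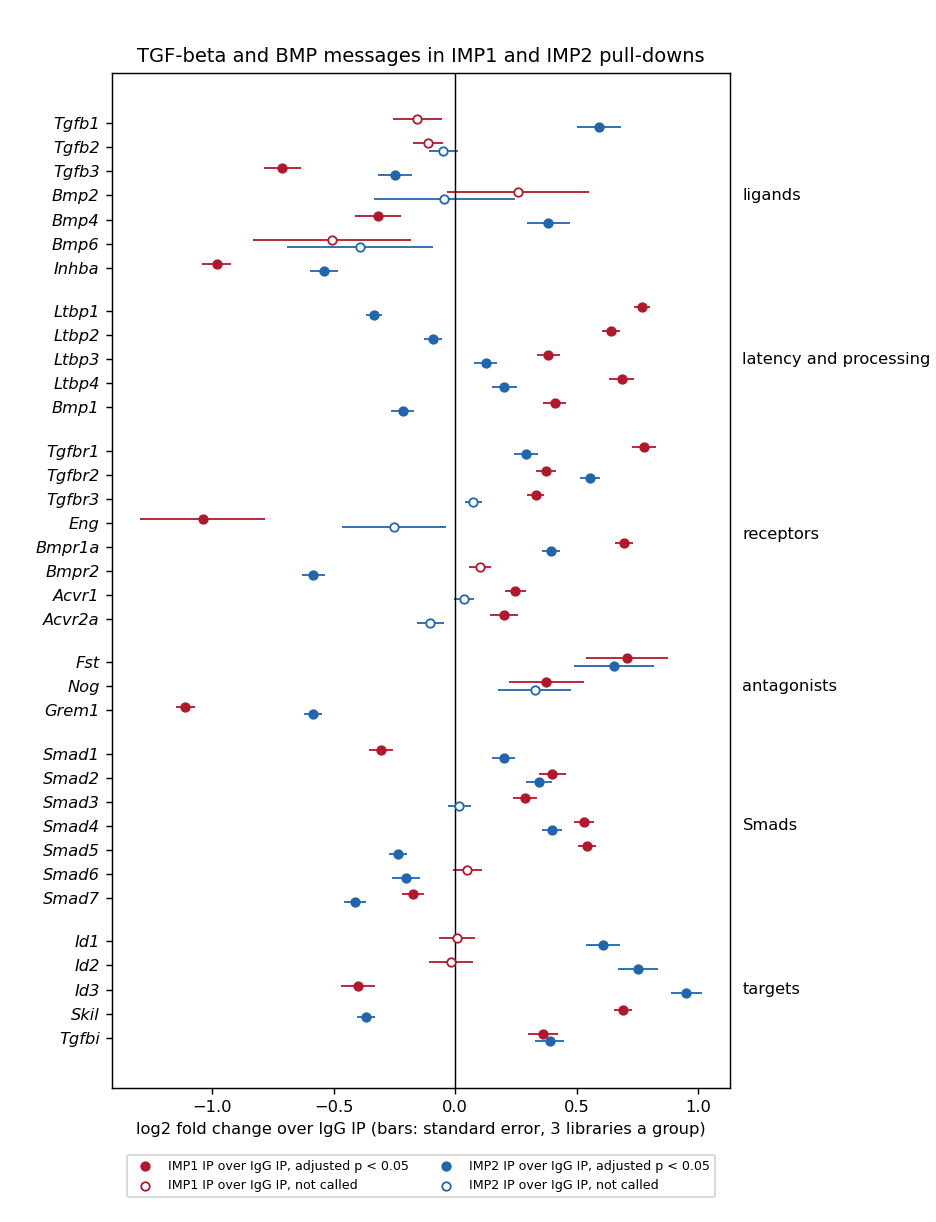
Log2 fold changes over IgG IP (x axis) of the 35 tested genes, listed by role down the y axis, with IMP1 IP in red and IMP2 IP in blue, standard errors as bars and filled points for adjusted p below 0.05 (3 libraries a group). The red points of the 5 latency and processing genes all lie right of 0, between 0.38 and 0.77, while the blue points of Id1, Id2 and Id3 lie at 0.61, 0.75 and 0.95.

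Among the ligands, 3 of 7 were lower in IMP1 IP than in IgG IP, and in IMP2 IP 2 were higher and 2 lower. Of all genes, 31.9% were lower in IMP1 IP, and 40.3% were higher and 37.3% lower in IMP2 IP. Inhba encodes a subunit of activin A and lies at chr13:16004256-16031609 (GRCm38.p6, ENSMUSG00000041324). It had 30.2, 31.0 and 32.3 CPM in the IMP1 IP libraries, 46.1, 39.2 and 41.8 CPM in the IMP2 IP libraries and 59.7, 61.8 and 63.0 CPM in the IgG IP libraries. The 3 groups do not overlap, with IMP1 IP lowest and IgG highest. The log2 fold change over IgG was -0.98 ± 0.061 (SE, n = 3 libraries a group, adjusted p = 5.6e-12) for IMP1 and -0.54 ± 0.058 (adjusted p = 2e-08) for IMP2. Inhba was also lower in IMP1 IP than in IMP2 IP, by a log2 fold change of -0.44 (adjusted p = 1.05e-06).

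Tgfb3, one of the TGF-beta ligands, followed the same order, with 16.8, 19.7 and 20.1 CPM in IMP1 IP, 25.6, 26.4 and 25.9 CPM in IMP2 IP and 32.2, 31.7 and 28.7 CPM in IgG IP. Its log2 fold change over IgG was -0.71 ± 0.077 for IMP1 (adjusted p = 4.02e-08) and -0.25 ± 0.071 for IMP2 (adjusted p = 0.00326). Under total count scaling the IMP2 value was -0.07, with an adjusted p of 0.346.

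Tgfb1, the ligand best known in wound repair and fibrosis, had 12.9, 10.8 and 11.4 CPM in IMP1 IP, 21.1, 20.2 and 18.02 CPM in IMP2 IP and 13.96, 11.9 and 13.2 CPM in IgG IP. IMP2 IP stood above the other groups, which overlap. The log2 fold change was 0.59 ± 0.091 for IMP2 over IgG (adjusted p = 4.37e-06), -0.16 ± 0.101 for IMP1 over IgG (adjusted p = 0.184) and -0.75 ± 0.089 for IMP1 over IMP2 (adjusted p = 1.17e-07). With total counts the IMP1 value was -0.31 (adjusted p = 0.011) and with the upper quartile -0.33 (adjusted p = 0.0069).

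Bmp4, a BMP ligand of many embryonic tissues, had 14.5, 16.1 and 14.6 CPM in IMP1 IP, 27.2, 23.8 and 22.7 CPM in IMP2 IP and 18.1, 16.9 and 21.1 CPM in IgG IP. It was higher in IMP2 IP (log2 fold change over IgG 0.38 ± 0.088, adjusted p = 0.000449) and lower in IMP1 IP (-0.32 ± 0.097, adjusted p = 0.00665). The IMP1 call rests on the third IgG library: without it the value was -0.21 with an adjusted p of 0.0886. Between IMP1 IP and IMP2 IP the log2 fold change was -0.70 (adjusted p = 2.4e-07).

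Tgfb2 lay at 37.9 to 44.5 CPM in the 9 IP libraries with log2 fold changes of -0.11 for IMP1 and -0.05 for IMP2, and did not pass the test in any of the 3 contrasts. Under total count and upper quartile scaling the IMP1 value of Tgfb2 was -0.26 (adjusted p = 0.00088) and -0.28 (adjusted p = 0.000404). Bmp2 and Bmp6 were near the floor, at 0.66 to 1.26 CPM and 0.495 to 0.971 CPM, and neither passed. Gdf10 had 0 counts in 8 of the 9 IP libraries, and Gdf6 was at 0.398 CPM or less.

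Latency and processing genes were higher in IMP1 IP without exception among the 5, where 31.7% of all genes were. Their median log2 fold change over IgG was 0.64. Ltbp1 (ENSMUSG00000001870, chr17:75005480-75392512) encodes a matrix protein that binds latent TGF-beta. It had 1901, 1868 and 1859 CPM in IMP1 IP, 914, 846 and 864 CPM in IMP2 IP and 1108, 1094 and 1102 CPM in IgG IP. The groups are well apart, IMP1 IP above IgG and IMP2 IP below it. Its log2 fold change over IgG was 0.77 ± 0.032 for IMP1 (adjusted p = 7.67e-15) and -0.33 ± 0.032 for IMP2 (adjusted p = 4e-09). The direct contrast of IMP1 IP with IMP2 IP gave 1.1 ± 0.032, a 2.15-fold difference (adjusted p = 2.76e-18).

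Ltbp2, a relative of Ltbp1 found on elastic microfibrils, had 798, 808 and 793 CPM in IMP1 IP, 510, 456 and 479 CPM in IMP2 IP and 497, 523 and 520.5 CPM in IgG IP. Only the IMP1 libraries stood apart, with a log2 fold change over IgG of 0.64 (adjusted p = 1.6e-12) and over IMP2 IP of 0.73 (adjusted p = 4.3e-14). For IMP2 over IgG the value was -0.09 (adjusted p = 0.0276), in overlapping libraries. This call was lost without any of 6 single libraries, and total counts turned it to 0.08.

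Ltbp4, which aids elastic fibre assembly, had 176, 161 and 163 CPM in IMP1 IP, 130.5, 109.8 and 118 CPM in IMP2 IP and 105, 104 and 101 CPM in IgG IP, with log2 fold changes over IgG of 0.69 and 0.20. The IMP2 value was 0.02 with the upper quartile (adjusted p = 0.687). Bmp1, a metalloprotease that processes procollagen and frees BMPs from chordin, had log2 fold changes of 0.41 for IMP1 and -0.22 for IMP2. Its IMP2 call was lost with total counts, at -0.04 (adjusted p = 0.412). Ltbp3 was at 0.38 for IMP1 and 0.13 for IMP2, and the IMP2 value turned to -0.05 with the upper quartile or with a filter of 10 CPM. Between IMP1 IP and IMP2 IP all 5 genes were higher (34.1% of all genes), by 0.26 to 1.1, except that Ltbp3 was at -0.07 with total counts (adjusted p = 0.164).

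**Figure D2:**
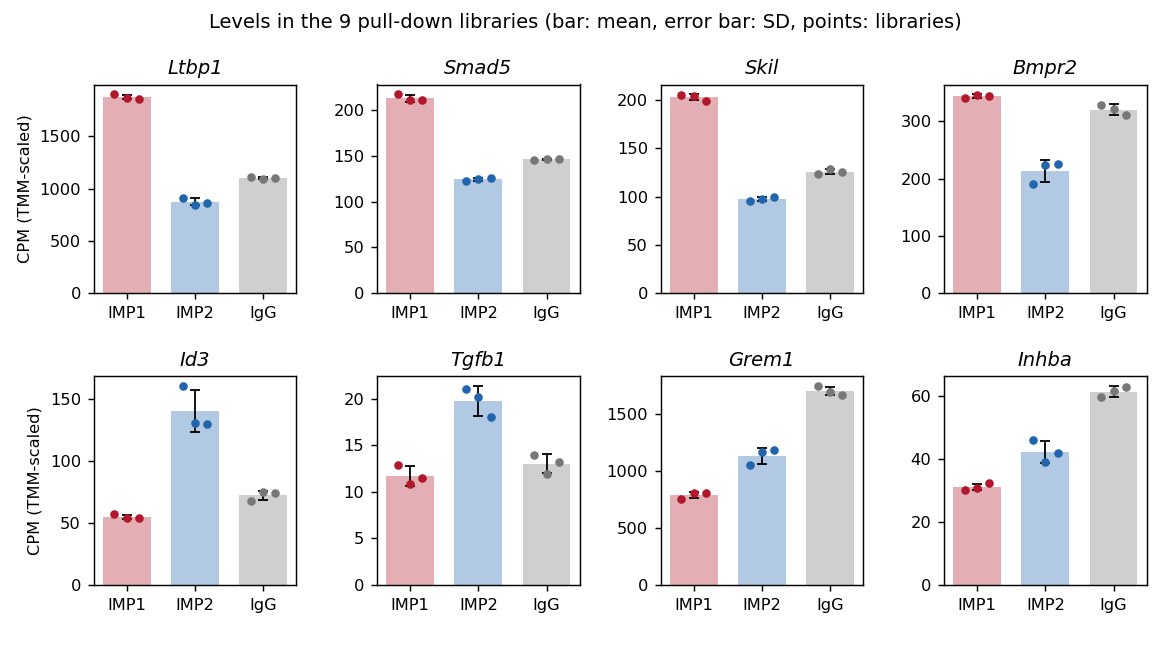
CPM (y axis, TMM-scaled) in each IP library for 8 genes, in the order IMP1 IP, IMP2 IP and IgG IP, with points for libraries, bars for the mean of 3 and error bars for the SD. Ltbp1, Smad5 and Skil are highest in IMP1 IP and lowest in IMP2 IP, Id3 and Tgfb1 are highest in IMP2 IP, and Grem1 and Inhba are highest in IgG IP.

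Receptor messages were mostly higher in IMP1 IP than in IgG IP, in 6 of 8, where 31.7% of all genes were. In IMP2 IP 3 of 8 were higher, near the 40.3% of all genes. Tgfbr1 (ENSMUSG00000007613, chr4:47353222-47414926), the type I TGF-beta receptor, had 98.9, 97.1 and 100 CPM in IMP1 IP, 65.1, 73.9 and 71.8 CPM in IMP2 IP and 56.8, 59.7 and 56.4 CPM in IgG IP. All 3 groups were apart, with IMP1 IP highest. The log2 fold change over IgG was 0.78 ± 0.050 for IMP1 (adjusted p = 9.71e-12) and 0.29 ± 0.051 for IMP2 (adjusted p = 2.05e-05). Bmpr1a, a type I BMP receptor, had 253, 248 and 246 CPM in IMP1 IP, 193, 207 and 206 CPM in IMP2 IP and 154, 153 and 154 CPM in IgG IP. It was higher in both pull-downs, by 0.69 ± 0.037 for IMP1 (adjusted p = 3.37e-13) and by 0.39 ± 0.037 for IMP2 (adjusted p = 2.43e-09).

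Tgfbr2, the type II TGF-beta receptor that binds the ligand, had 191, 179.7 and 179 CPM in IMP1 IP, 208, 201 and 214 CPM in IMP2 IP and 137, 142 and 145.5 CPM in IgG IP. IMP2 IP was highest, with a log2 fold change over IgG of 0.56 (adjusted p = 3.06e-11) beside 0.37 for IMP1 (adjusted p = 4.02e-08). The difference of IMP1 IP from IMP2 IP was -0.18 (adjusted p = 0.000238).

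Bmpr2, the type II BMP receptor, was the 1 receptor of the 8 called lower in IMP2 IP. It had 340.0, 346 and 344 CPM in IMP1 IP, 190.2, 223 and 226 CPM in IMP2 IP and 329, 321 and 310.1 CPM in IgG IP. IMP1 IP and IgG IP lay close together, with a log2 fold change of 0.10 ± 0.047 (adjusted p = 0.0633). It passed the threshold with the replicate number as a block (adjusted p = 0.0484) and without any 1 of the IMP2 libraries (0.000159 to 0.0405). For IMP2 over IgG it was -0.58 ± 0.048 (adjusted p = 2.7e-10) and for IMP1 over IMP2 0.69 ± 0.047 (adjusted p = 1.1e-11).

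Tgfbr3 (betaglycan, a co-receptor), Acvr1 (a type I BMP receptor) and Acvr2a (a type II activin receptor) were higher in IMP1 IP by 0.33, 0.25 and 0.20 on the log2 scale. Acvr1 and Acvr2a lost this call with total counts (adjusted p = 0.0603 and 0.489) and with the upper quartile (0.123 and 0.666). In IMP2 IP none of these 3 passed the test, at 0.07 (adjusted p = 0.055), 0.04 (0.429) and -0.10 (0.107). These values turn on the scaling. With total counts Tgfbr3 and Acvr1 were called higher in IMP2 IP, at 0.25 (adjusted p = 1.1e-06) and 0.21 (0.000121), and with the upper quartile both were called lower, at -0.10 (0.0116) and -0.14 (0.00508). Acvr2a was called lower with the upper quartile, at -0.28 (adjusted p = 0.000133), and with DESeq2 size factors, at -0.17 (0.0113). Of the receptors 6 were higher in IMP1 IP than in IMP2 IP (34.1% of all genes), but with total counts 4 of them lost this call. Acvr1 was then lower in IMP1 IP, at -0.12 (adjusted p = 0.0146). Tgfbr3 (-0.07, adjusted p = 0.0673), Bmpr1a (-0.03, 0.528) and Acvr2a (-0.03, 0.687) passed in neither direction. Eng (endoglin, a co-receptor) rested on few reads, at 1.00, 0.947 and 0.804 CPM in IMP1 IP, 1.48, 1.85 and 1.44 CPM in IMP2 IP and 1.44, 2.05 and 2.22 CPM in IgG IP. It was lower in IMP1 IP, by a log2 fold change over IgG of -1.04 ± 0.256 (adjusted p = 0.00123).

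The secreted antagonists did not move together. Grem1 (gremlin, which binds and blocks BMPs, ENSMUSG00000074934, chr2:113748675-113758648) had 759.5, 804 and 805 CPM in IMP1 IP, 1057, 1166 and 1186 CPM in IMP2 IP and 1745, 1699 and 1670.0 CPM in IgG IP. It was lower in both pull-downs, with no overlap between any of the 3 groups. The log2 fold change over IgG was -1.11 ± 0.039 for IMP1 (adjusted p = 5.94e-16) and -0.58 ± 0.038 for IMP2 (adjusted p = 7.79e-12). Grem1 and Eng were the genes of the pathway at least 2-fold lower in IMP1 IP than in IgG, where 12.4% of all genes were. On the higher side 0.583% of all genes reached 2-fold and 0 of the 35 did, with Tgfbr1 the closest at 1.71-fold. In IMP2 IP 4.04% of all genes were at least 2-fold higher and 16.3% lower than in IgG, and 0 of the 35 were either, with Id3 the closest at 1.93-fold higher.

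Fst (follistatin, which binds activin) had 4.73, 4.04 and 4.21 CPM in IMP1 IP, 4.55, 4.31 and 3.74 CPM in IMP2 IP and 2.09, 2.90 and 2.98 CPM in IgG IP. It was higher in both, with log2 fold changes of 0.71 ± 0.169 for IMP1 (adjusted p = 0.00095) and 0.65 ± 0.164 for IMP2 (adjusted p = 0.00105). Nog (noggin, a BMP antagonist) lay at 3.19 to 5.75 CPM, and its call in IMP1 IP, 0.37 with an adjusted p of 0.0394, was lost without the first or the third IMP1 library (0.0507 and 0.141) or the third IgG library (0.239). It was also lost with total counts (adjusted p = 0.218). In IMP2 IP Nog was at 0.33 and did not pass, but it did with total counts (0.50, adjusted p = 0.00435). It also passed there without some single libraries, such as the second IgG library (adjusted p = 0.0271).

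Of the 7 Smads, 4 were higher and 2 lower in IMP1 IP than in IgG IP, against 31.7% and 31.9% of all genes. In IMP2 IP 3 were higher and 3 lower, near the 40.3% and 37.3% of all genes. Smad5 and Smad1, the receptor Smads of the BMP branch, differed from each other. Smad5 had 217, 211 and 211 CPM in IMP1 IP, 122, 125 and 126 CPM in IMP2 IP and 146, 146 and 147 CPM in IgG IP. It was highest in IMP1 IP and lowest in IMP2 IP, with log2 fold changes over IgG of 0.54 ± 0.035 (adjusted p = 1.02e-11) and -0.23 ± 0.036 (adjusted p = 3.64e-06). With total counts the IMP2 value was -0.06 (adjusted p = 0.121). Smad1 had 55.1, 54.6 and 52.8 CPM in IMP1 IP, 73.3, 80.2 and 76.9 CPM in IMP2 IP and 66.6, 66.9 and 67.4 CPM in IgG IP. It ran the other way, lower in IMP1 IP (-0.31 ± 0.049, adjusted p = 1.04e-05) and higher in IMP2 IP (0.20 ± 0.046, adjusted p = 0.000496), where the upper quartile brought it to 0.02 (adjusted p = 0.701). The direct contrast of IMP1 IP with IMP2 IP was 0.78 for Smad5 (adjusted p = 4.67e-15) and -0.51 for Smad1 (adjusted p = 1.49e-09).

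Smad4, the partner of all receptor Smads, had 116, 114 and 113 CPM in IMP1 IP, 106, 103 and 104 CPM in IMP2 IP and 79.2, 81.3 and 77.5 CPM in IgG IP. Both pull-downs were above IgG, by 0.53 (adjusted p = 1.51e-10) and 0.40 (adjusted p = 8.11e-09). Smad2 was higher in both as well, by 0.40 and 0.34, and its contrast of IMP1 IP with IMP2 IP was 0.06 (adjusted p = 0.331), or -0.27 with total counts (adjusted p = 5.6e-05). Smad3, its partner in the TGF-beta branch, was higher in IMP1 IP by 0.29 (adjusted p = 2.12e-05) and stood at 0.02 in IMP2 IP (adjusted p = 0.751), or at -0.16 with the upper quartile.

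Smad7, an inhibitory Smad, had 81.0, 83.8 and 78.2 CPM in IMP1 IP, 65.5, 71.3 and 68.9 CPM in IMP2 IP and 88.8, 93.0 and 92.4 CPM in IgG IP. It was lower in both, by a log2 fold change of -0.17 for IMP1 (adjusted p = 0.00231) and -0.41 for IMP2 (adjusted p = 3.72e-08). Smad6, the inhibitor of the BMP branch, was lower in IMP2 IP (-0.20, adjusted p = 0.00349) and at 0.05 in IMP1 IP (adjusted p = 0.471), and with total counts its IMP2 value was -0.03 (adjusted p = 0.671). Between IMP1 IP and IMP2 IP 5 Smads were higher in IMP1 IP, where 34.1% of all genes were. With total counts Smad4 was lower in IMP1 IP, at -0.20 (adjusted p = 7.78e-05). Smad3 (-0.06, adjusted p = 0.276), Smad6 (-0.08, 0.232) and Smad7 (-0.09, 0.0834) then passed in neither direction.

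Of the 5 target genes, Id1, Id2 and Id3 were lower and Skil was higher in IMP1 IP than in IMP2 IP, and Tgfbi was called neither. The Id genes encode inhibitors of helix-loop-helix transcription factors and are textbook BMP targets. Id3 (ENSMUSG00000007872, chr4:136143822-136145392) had 57.0, 53.8 and 53.7 CPM in IMP1 IP, 160.4, 131 and 130 CPM in IMP2 IP and 68.1, 74.9 and 74.5 CPM in IgG IP. Every IMP2 library was above every IgG library, and every IMP1 library was below. The log2 fold change over IgG was 0.95 ± 0.065 for IMP2 (adjusted p = 1.33e-11) and -0.40 ± 0.071 for IMP1 (adjusted p = 4.02e-05). IMP1 IP was 2.55-fold lower than IMP2 IP, a log2 fold change of -1.35 ± 0.065 (adjusted p = 2.11e-14).

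Id2 had 16.6, 17.5 and 17.4 CPM in IMP1 IP, 25.3, 31.8 and 30.3 CPM in IMP2 IP and 17.7, 17.1 and 17.3 CPM in IgG IP. Id1 had 53.3, 52.2 and 44.2 CPM in IMP1 IP, 84.9, 73.5 and 69.5 CPM in IMP2 IP and 50.02, 51.5 and 47.6 CPM in IgG IP. For both, IMP2 IP stood above the other groups, which overlap. The log2 fold changes over IgG were 0.75 and 0.61 for IMP2 (adjusted p = 2.73e-08 and 8.26e-08) and -0.02 and 0.01 for IMP1 (adjusted p = 0.885 and 0.938).

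Skil (SnoN, a repressor of Smad complexes that TGF-beta induces, ENSMUSG00000027660, chr3:31095058-31122923) had the opposite order to Id3. It had 205, 204 and 199 CPM in IMP1 IP, 95.4, 96.9 and 99.5 CPM in IMP2 IP and 123, 129 and 125 CPM in IgG IP. The log2 fold change over IgG was 0.69 ± 0.037 for IMP1 (adjusted p = 4.18e-13) and -0.37 ± 0.038 for IMP2 (adjusted p = 1.31e-08). IMP1 IP was 2.08-fold higher than IMP2 IP, a log2 fold change of 1.06 (adjusted p = 5.08e-17). Tgfbi, a matrix protein named for its induction by TGF-beta, was higher in both, by 0.36 for IMP1 and 0.39 for IMP2, and the pull-downs overlapped (-0.03, adjusted p = 0.686), though with total counts Tgfbi was lower in IMP1 IP than in IMP2 IP (-0.35, adjusted p = 7.08e-06). Ltbp1 and Skil were at least 2-fold higher in IMP1 IP than in IMP2 IP, where 9.68% of all genes were, and Id3 was at least 2-fold lower, where 7.53% were. No other gene of the pathway reached 2-fold in that contrast.

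Another background is the total RNA of the wild-type cells, which was fitted together with the IP libraries (9 IP and 2 wild-type total RNA libraries, 16157 genes). Pull-down and library kind cannot be told apart in that fit, since no wild-type total RNA library is a pull-down. Of the 37 genes, 19 were higher and 18 lower in IMP1 IP than in wild-type total RNA, against 41.4% and 44.7% of all genes. For IMP2 IP 16 were higher and 17 lower (39.5% and 41.6%), and for IgG IP 15 were higher and 19 lower (43.7% and 44.4%).

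Besides Gdf6 and Gdf10, which had almost no counts in the pull-downs, genes far below total RNA in IMP1 IP included Fst, Eng, Tgfb3 and Tgfbi. These were also below it in IgG IP. Fst had log2 fold changes of -5.42 in IMP1 IP, -5.52 in IMP2 IP and -6.17 in IgG IP. Eng was at -5.25, -4.50 and -4.25, Tgfb3 at -4.31, -3.89 and -3.64, and Tgfbi at -2.12, -2.13 and -2.52. At least 4-fold lower were 7 of the 37 in IMP1 IP, 7 in IMP2 IP and 6 in IgG IP, near the 20.1%, 16.6% and 18.2% of all genes. Tgfbr3 was farthest above total RNA, at 2.77, 2.47 and 2.39, and Smad5, Skil, Ltbp1 and Tgfbr1 followed in IMP1 IP, at 1.86, 1.85, 1.76 and 1.70. Fst and Tgfbi, which were higher in IMP1 IP and IMP2 IP than in IgG IP, were thus lower in both than in wild-type total RNA, and Grem1, lower than in IgG, was at 0.33 in IMP1 IP and 0.82 in IMP2 IP.

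In total RNA, the knockouts differed from their wild types at ligands, latency and processing genes, antagonists, receptors and targets, and at 1 Smad. IMP1 KO cells had more Bmp4, Ltbp2, Grem1 and Id2 and less Gdf10, Tgfbr2, Tgfbr3, Eng and Tgfbi RNA, each at least 2-fold. IMP2 KO cells had more Gdf10, Tgfbr2, Tgfbr3, Smad6, Id1, Id2 and Id3 and less Tgfb3, Inhba, Ltbp1, Ltbp2, Grem1 and Skil RNA. Of 33 genes with at least 10 CPM in 1 of the 4 libraries, 4 were at least 2-fold higher in IMP1 KO (5.25% of all genes) and 5 lower (7.58%). In IMP2 KO 7 were at least 2-fold higher (7.45%) and 6 lower (7.87%). Gdf10 is among the 33 through its level in IMP2 KO, and in the IMP1 cells it was below 10 CPM, so that without it 4 genes were lower in IMP1 KO. It is also counted in the 7 higher in IMP2 KO, although its IMP2 WT level was 2.49 CPM. Between the wild types, IMP2 WT over IMP1 WT, 0 of the 33 differed by 2-fold, against 0.94% of all genes (0.465% higher and 0.475% lower), with log2 ratios of -0.85 to 0.76. The median log2 ratio was 0.04 in IMP1 KO and 0.02 in IMP2 KO, beside -0.03 and -0.03 over all genes. With 1 library each, intervals on the ratios (exact, 95%) cover counting error only.

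Markers of other cell types moved with the knockouts. All 4 chondrocyte markers (Acan, Col2a1, Matn1 and Sox9) were at least 2-fold higher in IMP2 KO, with summed levels of 11090 CPM in IMP2 KO and 184.5 CPM in IMP2 WT cells, and 164 CPM in IMP1 KO and 366 CPM in IMP1 WT cells. The 6 macrophage markers summed to 98.3 CPM in IMP2 KO and 11.98 CPM in IMP2 WT cells, all 6 at least 2-fold higher. In IMP1 KO they summed to 1.52 CPM, with Ptprc, Adgre1 and Tyrobp at 0, beside 10.4 CPM in IMP1 WT cells. Of the 4 smooth muscle or pericyte markers, 1 was at least 2-fold higher in IMP1 KO, Rgs5, at 1513 CPM in IMP1 KO and 33.4 CPM in IMP1 WT cells. Myh11 was 1.8-fold higher (145 CPM in IMP1 KO, 80.5 CPM in IMP1 WT). Cnn1 (603 CPM in IMP1 KO, 629.8 CPM in IMP1 WT) and Mcam (290.0 CPM in IMP1 KO, 291 CPM in IMP1 WT) were level. The 4 summed to 2551 CPM in IMP1 KO and 1035 CPM in IMP1 WT cells. In IMP2 KO 3 of the 4 were lower, with a sum of 78.8 CPM in IMP2 KO and 984 CPM in IMP2 WT cells. Neural markers summed to 60.2 CPM in IMP1 KO and 70.5 CPM in IMP1 WT cells, and to 11.9 CPM in IMP2 KO and 92.5 CPM in IMP2 WT cells. Tubb3 and Stmn2 were lower in IMP2 KO, while Sox2 was higher, with 47 counts beside 12 counts in IMP2 WT. Skeletal muscle markers summed to 8.71 CPM in IMP1 KO and 25.3 CPM in IMP1 WT cells, and to 0.55 CPM in IMP2 KO and 22.8 CPM in IMP2 WT cells. In the IMP1 cells Des was lower in the knockout (1.78 CPM in IMP1 KO, 22.8 CPM in IMP1 WT). Actc1 was higher (6.93 CPM in IMP1 KO, 2.24 CPM in IMP1 WT). Endothelial markers summed to 6.09 CPM in IMP1 KO, 6.85 CPM in IMP1 WT, 5.99 CPM in IMP2 KO and 3.50 CPM in IMP2 WT cells, and epithelial ones to at most 2.69 CPM. The endothelial markers did not move together in the IMP2 cells. Tek had 91 counts in IMP2 KO and 18 counts in IMP2 WT. Kdr had 6 counts in IMP2 KO and 25 counts in IMP2 WT, and Emcn had 0 and 12 counts. Fibroblast markers summed to 24660 CPM in IMP1 KO and 27140 CPM in IMP1 WT cells, and to 43250 CPM in IMP2 KO and 36280 CPM in IMP2 WT cells. Single fibroblast markers differed more: Lum was 6.88-fold and Col3a1 3.26-fold lower and Pdgfrb 2.65-fold higher in IMP1 KO, and Thy1 was 7.5-fold lower, Pdgfra 3.71-fold higher and Lum 2.83-fold higher in IMP2 KO. The part of these cell types in the differences below was not tested, and in bulk RNA fewer cells of a type and less RNA per cell cannot be told apart.

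**Figure D3:**
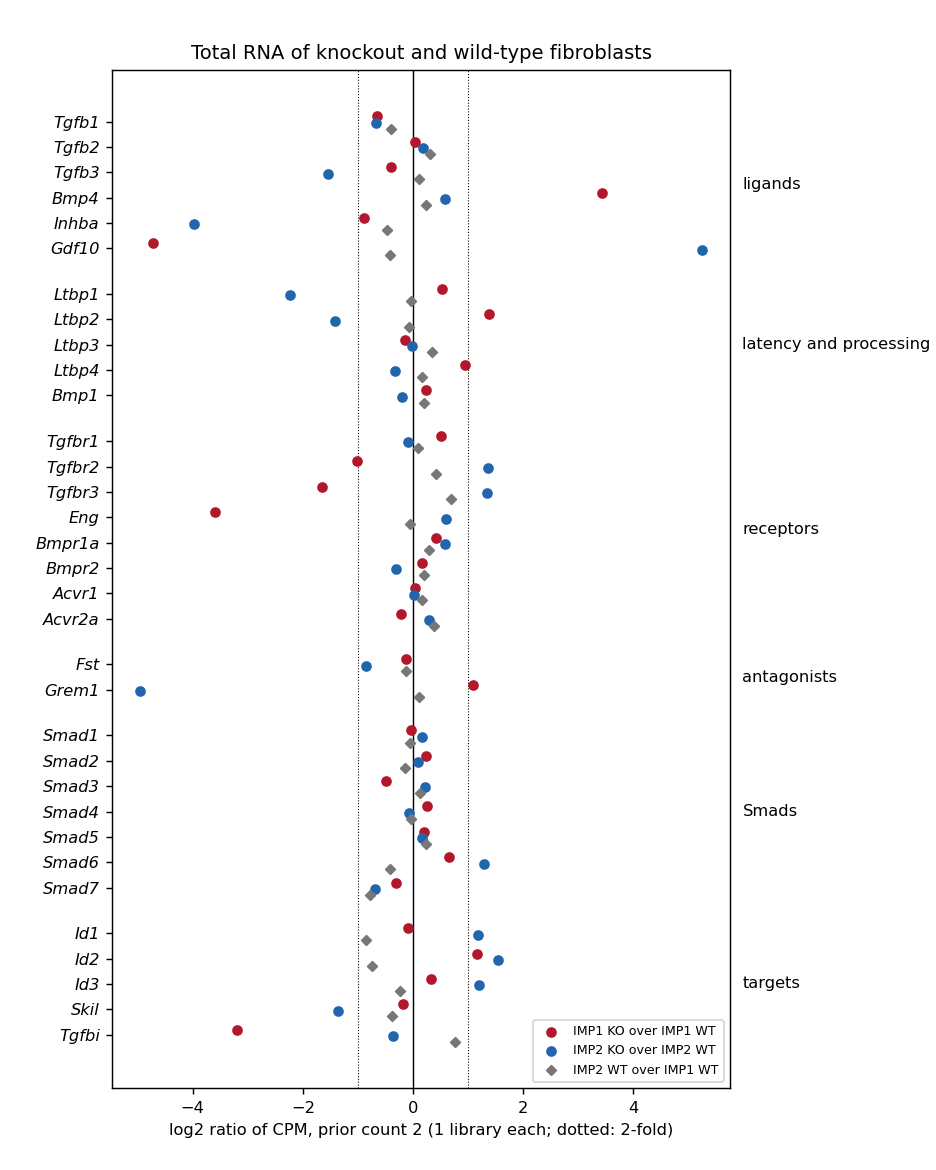
Log2 ratios of CPM in total RNA (x axis, prior count 2, 1 library each) for the 33 genes at 10 CPM or more, listed by role down the y axis, for IMP1 KO over IMP1 WT (red), IMP2 KO over IMP2 WT (blue) and IMP2 WT over IMP1 WT (grey diamonds), with 2-fold as dotted lines. The grey diamonds stay between -0.85 and 0.76, while Bmp4 lies at 3.44 in IMP1 KO and Grem1 at -4.95 in IMP2 KO. The IMP1 KO point of Gdf10 stands for 0 counts and its place depends on the prior count.

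Bmp4 (ENSMUSG00000021835, chr14:46383525-46390669) was at 827 CPM in IMP1 KO and 76.2 CPM in IMP1 WT cells, a 10.9-fold higher level (interval 10.2 to 11.6). In IMP2 KO it was at 135 CPM, beside 90.1 CPM in IMP2 WT cells, 1.5-fold higher (1.4 to 1.6). Inhba was low in IMP2 KO, with 5.07 CPM against 82.0 CPM in IMP2 WT cells, 16.2-fold lower (13.0 to 20.4). In IMP1 KO it had 61.3 CPM, beside 113 CPM in IMP1 WT cells, 1.85-fold lower (1.69 to 2.02).

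Gdf10, a divergent member of the ligand family also called BMP3b, differed in opposite directions. It had 0 counts in IMP1 KO and 50 counts (3.39 CPM) in IMP1 WT cells, at least 13.4-fold lower with 3 counts taken as the floor of the knockout library. In IMP2 KO it was at 99.8 CPM, beside 2.49 CPM in IMP2 WT cells, 40.0-fold higher (29.5 to 55.8). The level was thus below 10 CPM in 3 of the 4 libraries. Gdf6, below 10 CPM throughout, also had 0 counts in IMP1 KO and 70 counts in IMP1 WT cells, at least 18.7-fold lower, and was at 2.81 CPM in IMP2 KO and 6.35 CPM in IMP2 WT cells. Bmp2 had 3 counts in IMP1 KO and 51 counts in IMP1 WT cells, 13.6-fold lower with an interval of 4.41 to 68.3. In IMP2 KO it had 49 counts, beside 25 counts in IMP2 WT cells, 2.02-fold higher (1.22 to 3.41), and in IMP2 WT cells it was 2.33-fold lower than in IMP1 WT cells. Bmp6 had 13 counts in IMP1 KO and 18 counts in IMP1 WT cells, and 13 counts in IMP2 KO and 25 counts in IMP2 WT cells, with intervals that include no difference. Tgfb3 was 2.92-fold lower in IMP2 KO (154 CPM, against 450.5 CPM in IMP2 WT) and 1.33-fold lower in IMP1 KO (316 CPM, against 419 CPM in IMP1 WT). Tgfb1 was 1.57-fold lower in IMP1 KO (39.0 CPM, against 61.2 CPM in IMP1 WT) and 1.6-fold lower in IMP2 KO (29.1 CPM, against 46.5 CPM in IMP2 WT).

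Ltbp1 and Ltbp2, grouped here under latency and processing, were above their wild type in IMP1 KO and below it in IMP2 KO. Ltbp2 (ENSMUSG00000002020, chr12:84783212-84876558) was at 1823 CPM in IMP1 KO and 701 CPM in IMP1 WT cells, 2.6-fold higher (2.54 to 2.66). It was at 249.6 CPM in IMP2 KO and 664 CPM in IMP2 WT cells, 2.66-fold lower (2.57 to 2.76). Ltbp1 was at 938 CPM in IMP1 KO and 650.3 CPM in IMP1 WT cells, 1.44-fold higher, and at 136 CPM in IMP2 KO and 634 CPM in IMP2 WT cells, 4.68-fold lower (4.47 to 4.9). Ltbp4 was 1.94-fold higher in IMP1 KO (125 CPM, against 64.4 CPM in IMP1 WT) and 1.26-fold lower in IMP2 KO. Ltbp3 and Bmp1 stayed within 1.17-fold of their wild types in both knockouts.

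Among the receptors, 3 of 8 were at least 2-fold lower in IMP1 KO and 2 of 8 higher in IMP2 KO, where 7.58% and 7.45% of all genes were. Eng was at 3.30 CPM in IMP1 KO and 41.6 CPM in IMP1 WT cells, 12.6-fold lower (9.12 to 17.9). In IMP2 KO it was at 60.8 CPM, beside 40.2 CPM in IMP2 WT cells, 1.51-fold higher. Markers of endothelial cells, in which Eng is known to be abundant, were below 7 CPM in sum in each of these libraries, as given above. In the IMP1 cells most of that sum was Kdr, at 5.66 CPM in IMP1 KO and 4.07 CPM in IMP1 WT. Emcn had 4 counts in IMP1 KO and 32 counts in IMP1 WT, and Pecam1, Cdh5 and Tek had at most 4 counts in either. The part of endothelial cells in the Eng difference was not tested.

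Tgfbr3 and Tgfbr2 were lower in IMP1 KO and higher in IMP2 KO. Tgfbr3 had 12.1 CPM in IMP1 KO and 38.1 CPM in IMP1 WT cells, 3.15-fold lower (2.62 to 3.81), and 157 CPM in IMP2 KO and 61.4 CPM in IMP2 WT cells, 2.55-fold higher (2.37 to 2.74). Tgfbr2 (ENSMUSG00000032440, chr9:116087695-116175363) had 101 CPM in IMP1 KO and 206 CPM in IMP1 WT cells, 2.03-fold lower (1.9 to 2.18). In IMP2 KO it had 716 CPM, beside 277 CPM in IMP2 WT cells, 2.59-fold higher (2.5 to 2.68). The IMP1 KO value is at the edge of the 2-fold limit and fell short of it with total counts or DESeq2 size factors. The other 5 receptors differed by at most 1.51-fold in either knockout.

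Among the antagonists, Grem1 was at 1487 CPM in IMP1 KO and 699 CPM in IMP1 WT cells, 2.13-fold higher (2.08 to 2.18), and at 24.4 CPM in IMP2 KO and 757 CPM in IMP2 WT cells, 31.1-fold lower (28.1 to 34.4). Fst was 1.8-fold lower in IMP2 KO (115 CPM, against 207 CPM in IMP2 WT) and 1.09-fold lower in IMP1 KO. Nog, below 10 CPM throughout, had 17 counts in IMP1 KO and 55 counts in IMP1 WT cells, 2.6-fold lower (1.48 to 4.77). Its count was 92 in IMP2 KO and 34 in IMP2 WT cells, 2.79-fold higher (1.86 to 4.26).

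Of the Smads, 0 of 7 were at least 2-fold different in IMP1 KO and 1 of 7 in IMP2 KO, where 12.8% and 15.3% of all genes were. That gene was Smad6, at 103 CPM in IMP2 KO and 42.0 CPM in IMP2 WT cells, 2.45-fold higher (2.25 to 2.68), and at 89.1 CPM in IMP1 KO and 56.2 CPM in IMP1 WT cells, 1.58-fold higher. Smad7 was 1.61-fold lower in IMP2 KO and 1.23-fold lower in IMP1 KO, beside a level 1.73-fold lower in IMP2 WT than in IMP1 WT cells. Smad1, Smad2, Smad4 and Smad5 stayed within 1.2-fold in both knockouts, and Smad3 was 1.4-fold lower in IMP1 KO.

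All 3 Id genes were at least 2-fold higher in IMP2 KO, where 7.45% of all genes were. Id1 was at 138 CPM in IMP2 KO and 60.7 CPM in IMP2 WT cells, 2.28-fold higher (2.11 to 2.45). Id2 was at 118 CPM in IMP2 KO and 40.2 CPM in IMP2 WT cells, 2.94-fold higher (2.69 to 3.21). Id3 was at 512 CPM in IMP2 KO and 222.5 CPM in IMP2 WT cells, 2.3-fold higher (2.21 to 2.39). In IMP1 KO only Id2 reached 2-fold, at 149.6 CPM in IMP1 KO and 67.1 CPM in IMP1 WT cells (2.23-fold, 2.06 to 2.41). Id1 and Id2 were also 1.81-fold and 1.67-fold lower in IMP2 WT than in IMP1 WT cells, so that Id1 in IMP2 KO was 138 CPM, beside 109.6 CPM in IMP1 WT cells.

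Tgfbi (ENSMUSG00000035493, chr13:56609586-56639359) was at 14.2 CPM in IMP1 KO and 131 CPM in IMP1 WT cells, 9.2-fold lower (7.86 to 10.8). In IMP2 KO it was at 173 CPM, beside 221 CPM in IMP2 WT cells, 1.28-fold lower. Skil was 2.58-fold lower in IMP2 KO (22.1 CPM, against 57.0 CPM in IMP2 WT) and 1.13-fold lower in IMP1 KO (65.7 CPM, against 74.0 CPM in IMP1 WT).

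**Figure D4:**
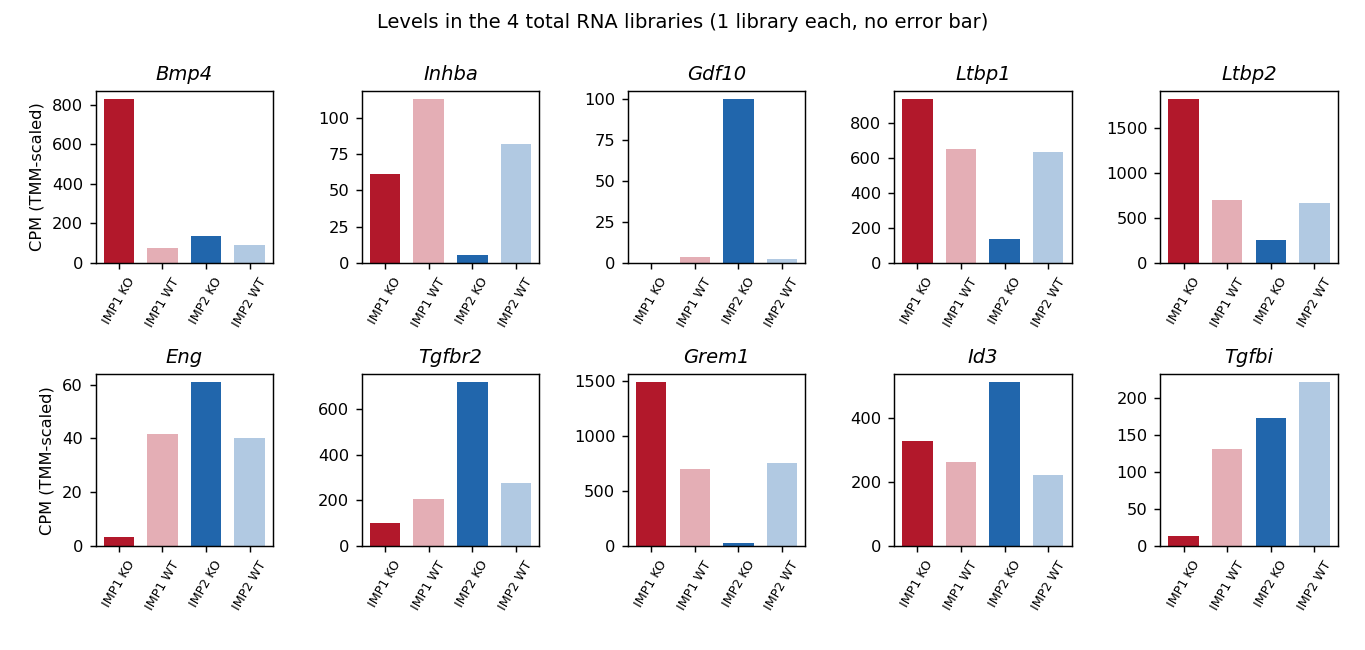
CPM (y axis, TMM-scaled) of 10 genes in the 4 total RNA libraries, in the order IMP1 KO, IMP1 WT, IMP2 KO and IMP2 WT, 1 library each and so without error bars. Bmp4 is high in IMP1 KO alone (827 CPM), Grem1 and Ltbp2 are high in IMP1 KO and low in IMP2 KO, and Eng and Tgfbi are low in IMP1 KO (3.30 and 14.2 CPM).

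The promoters of 4 of these genes, from the RefSeq promoter table of GRCm38.p6 and ending at the base before the gene's start, are printed because Smad complexes are known to act at such sequences. Total RNA of these 4 differed at least 2-fold in a knockout, as it did for other genes with a promoter in the table that are not shown. Of the 37 genes, 25 have a promoter in the table, with 31 promoters in all. Capitals mark GGCGCC, a GC-rich element described for BMP Smads that is its own reverse complement, and CAGAC or its reverse complement GTCTG, the letters of the Smad box. Each sequence has 250 bases and reads 5′ to 3′ on the gene's strand. They are Id2 at chr12:25096093-25096342 (minus strand), Id3 at chr4:136143572-136143821 (plus), Grem1 at chr2:113758649-113758898 (minus) and Tgfbi at chr13:56609336-56609585 (plus).
Id2: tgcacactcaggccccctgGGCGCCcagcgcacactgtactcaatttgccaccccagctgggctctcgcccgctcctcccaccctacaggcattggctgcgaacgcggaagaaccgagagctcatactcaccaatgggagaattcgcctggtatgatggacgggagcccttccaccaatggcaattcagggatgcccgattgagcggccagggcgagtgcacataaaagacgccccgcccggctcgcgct
Id3: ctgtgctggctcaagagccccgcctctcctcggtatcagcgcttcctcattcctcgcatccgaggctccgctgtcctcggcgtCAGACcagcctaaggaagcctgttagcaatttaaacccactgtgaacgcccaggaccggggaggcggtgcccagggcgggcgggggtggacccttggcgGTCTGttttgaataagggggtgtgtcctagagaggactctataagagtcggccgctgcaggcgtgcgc
Grem1: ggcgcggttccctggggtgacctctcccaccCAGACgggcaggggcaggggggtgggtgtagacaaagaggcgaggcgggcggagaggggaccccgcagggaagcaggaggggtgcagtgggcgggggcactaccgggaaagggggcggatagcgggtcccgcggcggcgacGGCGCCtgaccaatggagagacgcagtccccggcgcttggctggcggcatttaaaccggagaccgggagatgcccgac
Tgfbi: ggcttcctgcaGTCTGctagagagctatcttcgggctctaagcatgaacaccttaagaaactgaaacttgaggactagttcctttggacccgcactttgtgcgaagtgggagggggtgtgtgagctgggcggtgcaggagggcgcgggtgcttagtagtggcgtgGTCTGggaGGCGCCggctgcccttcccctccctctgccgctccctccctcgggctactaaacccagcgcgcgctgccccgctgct

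GGCGCC was in 9 of the 31 promoters (29.0%), in 8 genes, against 9.59% of all 32851 promoters of the table cut to the same length. CAGAC was in 15 of the 31 (48.4%), against 42.2%. Of the 4 sequences shown, Id2 has 1 GGCGCC and no CAGAC, Id3 has 2 CAGAC matches and no GGCGCC, Grem1 has 1 of each, and Tgfbi has 1 GGCGCC and 2 CAGAC matches. No match overlaps another in these 4. Other genes with a promoter in the table also differed at least 2-fold in a knockout. Of these, Bmp4, Inhba and Smad6 have neither motif, and Gdf10, Eng, Ltbp1, Ltbp2 and Tgfbr2 have CAGAC but no GGCGCC. Such a match says only that the letters are there.

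The wider pathway was followed in 78 more genes, chosen for their roles, of which 64 were tested in the IP libraries. In IMP1 IP against IgG 32 were higher and 13 lower, where 31.7% and 31.9% of all genes were. In IMP2 IP against IgG the counts were 28 and 18 (40.3% and 37.3% of all genes), and in IMP1 IP against IMP2 IP 24 and 23 (34.1% and 37.3%), both near the background. By role, the test put 9 of 12 latency and matrix genes above IgG in IMP1 IP and 0 below it, while 0 of 6 ligands were above and 5 below. Itgav, an integrin subunit that helps release latent TGF-beta, was highest in IMP1 IP among those with an average log2 CPM of at least 3, with a log2 fold change of 0.90 over IgG (adjusted p = 2.51e-15). Gdf11, a ligand, was lowest among these, at -0.72 (adjusted p = 6.33e-10). In IMP2 IP 10 of 15 targets were higher and 1 lower, led by Acta2, smooth muscle actin (1.2, adjusted p = 2.84e-18), and 7 of 9 antagonists were higher, among them Dcn, the TGF-beta binding proteoglycan decorin (1.18, adjusted p = 2.45e-08).

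Between IMP1 IP and IMP2 IP the widest gaps among them were at Fbn1, fibrillin, the microfibril protein to which LTBPs attach (1.61, adjusted p = 1.26e-19), and at Fkbp1a, an inhibitor bound to type I receptors (-1.34, adjusted p = 2.88e-18). In total RNA 57 of the 78 reached 10 CPM. In IMP1 KO 5 of these exceeded the wild type by 2-fold or more and 9 were that far below it (5.25% and 7.58% of all genes), and in IMP2 KO 9 were above and 15 below (7.45% and 7.87%). Of the 14 further target genes at 10 CPM, 7 were at least 2-fold lower and 4 higher in IMP2 KO, with a median log2 ratio of -1.25. In IMP1 KO 2 were lower and 2 higher, with a median of -0.01. Smad9, a BMP receptor Smad, was high in both knockouts, at 34.8 CPM in IMP1 KO and 9.43 CPM in IMP1 WT cells, and at 23.3 CPM in IMP2 KO and 7.06 CPM in IMP2 WT cells.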

How the data were processed

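The authors deposited, for each library, 1 file with the raw count of reads for every Ensembl gene, made with STAR and HTSeq on mm10, per the submitters' processing notes. Versions, settings, strandedness and annotation release are not given in the sources used here. Reads of overlapping genes cannot be told apart: 18 of the 37 genes overlap another annotated gene, and Bmp6, Ltbp3, Eng, Acvr1 and Acvr2a overlap a protein-coding one. The library kit was Illumina TruSeq, per the labels' protocols. The 5 tally lines of each file (31.0 to 48.3% of its records) were kept out of library sizes. Ensembl IDs were matched to symbols for 42462 of 43629 genes, and positions came from RefSeq (GRCm38.p6).

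The 9 IP libraries entered 1 quasi-likelihood fit in edgeR 4.0.16 (R 4.3.3) with TMM scaling, edgeR's filter on low counts by group, no covariate, 2-sided contrasts and Benjamini-Hochberg adjustment over 14076 genes (threshold 0.05). Contrasts with IgG share its libraries. TMM factors were 0.894 to 0.896 in IMP1 IP, 1.12 to 1.128 in IMP2 IP and 0.992 to 1.001 in IgG IP, and the biological coefficient of variation was 3.84%. Standard errors are the log2 fold change over the square root of F. Total RNA had 1 library a group: ratios of TMM-scaled CPM, exact 95% counting intervals, log2 ratios with a prior count of 2, and a 2-fold limit among the 10324 genes with at least 10 CPM in 1 library. The scripts were tested on simulated data. Alternatives were total count, upper quartile and DESeq2 1.42.0 scaling, DESeq2 and limma 3.58.1 tests, other filters and folds, a replicate block, fewer libraries and wild-type total RNA as background.

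The genes, roles, marker lists and tests were chosen with earlier results of these data known. All 37 genes are covered by role, and values per library are given where a gene with an average log2 CPM of at least 3 in the IP libraries, or 10 CPM in a total RNA library, had one of the largest changes of its role, or was low but called. Of the 78 further pathway genes, at most the 3 highest and 3 lowest of a comparison past its threshold, with the same minimum, are named. Replicate numbers did not pair the IP libraries. A result on 1 of the further genes is not reported here.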

Additional observations from a re-analysis of the deposited data

Results flagged for a closer look

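In total RNA, 5 genes of the pathway with at least 10 CPM in 1 library differed at least 2-fold in opposite directions in the knockouts, and with 1 library a group these differences were not tested. Among them, Tgfbr2 in IMP1 KO fell short of 2-fold with total counts or DESeq2 size factors. The log2 ratio of IMP2 KO to IMP2 WT minus that of IMP1 KO to IMP1 WT was at least 9.07 for Gdf10, with 3 counts taken as the floor of the IMP1 KO library at 0, 2.99 for Tgfbr3 and 2.40 for Tgfbr2, which were high in IMP2 KO and low in IMP1 KO. It was -6.04 for Grem1 and -2.79 for Ltbp2, which were low in IMP2 KO and high in IMP1 KO. Gdf10 reached 10 CPM in IMP2 KO only, the library in which it was high. In the same libraries the 4 chondrocyte markers summed to 11090 CPM in IMP2 KO and 184.5 CPM in IMP2 WT cells, and Rgs5 alone of the 4 smooth muscle or pericyte markers was at least 2-fold higher in IMP1 KO, at 1513 CPM beside 33.4 CPM in IMP1 WT cells. Their part was not tested. Below 10 CPM, Nog and Bmp2 were also at least 2-fold lower in IMP1 KO and higher in IMP2 KO.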

How the results depend on the processing

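Of the pathway's genes, 26 to 28 were called in each IP contrast with limma or DESeq2's Wald test, as against 27 (IMP1 over IgG), 26 (IMP2 over IgG) and 28 (IMP1 over IMP2) here. With a 1.5-fold limit added, 11 genes of the pathway and 3698 of all genes were called for IMP1 over IgG, 5 and 6020 for IMP2 over IgG, and 12 and 5655 for IMP1 over IMP2. With a 10 CPM filter 7240 of all genes were called for IMP2 over IgG. With wild-type total RNA as background, 13903 of all genes were called for IMP1 IP. In total RNA, a 1 CPM filter gave 2704 genes of all in IMP1 KO and 2959 in IMP2 KO, and a 1.5-fold limit 2606 and 3115. Without 1 library at a time, 25 to 28 genes of the pathway were called for IMP1 over IgG, 25 to 28 for IMP2 over IgG and 28 to 29 for IMP1 over IMP2, and 24 of 945 calls, at 7 genes, changed.

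The signs of some values differed between settings, and the cause was not tested. Wild-type total RNA as background is another comparison than IgG, and pull-down and library kind cannot be told apart in it. It joins IMP1 WT and IMP2 WT, 1 library each, in 1 group. Against it, these IMP1 IP values had the other sign than over IgG: Bmp2 was at -0.84, Ltbp3 -1.01, Bmp1 -1.35, Tgfbr2 -0.18, Fst -5.42, Grem1 0.33, Smad1 0.87, Smad7 0.67, Id1 -0.55 and Tgfbi -2.12. With that background in IMP2 IP, Tgfb1 was at -1.27, Bmp4 -1.59, Ltbp1 0.62, Ltbp3 -1.31, Tgfbr2 -0.04, Bmpr2 0.75, Acvr2a 0.20, Fst -5.52, Grem1 0.82, Smad5 1.04, Smad6 0.01, Smad7 0.39, Id2 -0.70, Id3 -0.62, Skil 0.75 and Tgfbi -2.13. Among these IMP2 values, Tgfbr2 and Smad6 did not pass the test (adjusted p = 0.625 and 0.906). Over IgG, Bmp2 and Id1 in IMP1 IP and Acvr2a in IMP2 IP had not passed. For IMP2 over IgG, total counts put Ltbp2 at 0.08, and both the upper quartile and the 10 CPM filter put Ltbp3 at -0.05, Tgfbr3 at -0.10, Acvr1 at -0.14 and Smad3 at -0.16. For IMP1 over IMP2, total counts put Ltbp3 at -0.07, Tgfbr3 -0.07, Bmpr1a -0.03, Acvr1 -0.12, Acvr2a -0.03, Smad2 -0.27, Smad3 -0.06, Smad4 -0.20, Smad6 -0.08 and Smad7 -0.09. Of these, only Acvr1, Smad2 and Smad4 passed the test on the lower side.

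The replicate numbers were not taken to pair libraries (correlations of deviations between libraries of the same number were -0.0953 to 0.178, and highest with the own number in 4 of 18). The replicate block gave 9017, 10961 and 10067 calls of all genes for IMP1 over IgG, IMP2 over IgG and IMP1 over IMP2, and 28, 26 and 28 in the pathway, with Bmpr2 in IMP1 IP the 1 changed call (adjusted p = 0.0484). Depth limits Bmp2, Bmp6, Gdf6, Gdf10 and Eng in the IP libraries, which had at most 2.22 CPM there.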
